A study of Mus musculus with 2 samples.

Results

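The regions described here are the long autosomal stretches in which neither of 2 DNase-seq replicates of the embryonic mouse face had a single peak. They were chosen by the peak lists themselves: the peaks of both replicates were merged on chromosomes 1 to 19, and a stretch is an interval between neighbouring merged peaks of at least 150 kb that holds no assembly gap of 1000 bp or more. Of 323874 gap-free intervals, 448 met this rule, a share of 0.138%. Another 33 intervals of that length were left out because they hold a gap. Since length and the absence of peaks made the choice, both are description only.

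In DNase-seq, nuclei are treated with the nuclease DNase I and the ends it frees are sequenced, so that promoters, enhancers and insulators in use appear as peaks of cutting. The material was facial prominence, the tissue that forms the jaws, nose and palate, from mouse embryos of strain B6NCrl at 14.5 days, with males and females pooled and no treatment listed. The only group held 2 biological replicates, separate tissue samples under 1 donor record, so the design contains no contrast between conditions. Replicate 1 had 296849 distinct autosomal peaks and replicate 2 had 212971. The number of reads behind each list is unknown, and a longer list leaves fewer long intervals. All 15 facial mesenchyme markers and all 6 facial epithelium markers examined had a promoter peak in both replicates, whereas of 2 autosomal blood cell markers 0 did in replicate 1 and 1 in replicate 2. The 3 neuron and 2 muscle markers also had promoter peaks in both, and the 3 endothelial markers had 3 in replicate 1 and 2 in replicate 2. None of these marker genes overlapped a peak-free stretch. For those with a promoter peak this was largely set by the rule and is no separate result.

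Mammalian genomes contain broad blocks with little regulatory activity in a given tissue. Some are gene deserts, AT-rich intergenic sequence that often lies at the nuclear lamina. Others hold tandem gene families, such as odorant, pheromone and taste receptors, antigen receptor segments and defensins, which are used in a few specialised cell types and otherwise stay silent. Sequence present in several near-identical copies is a separate matter, because short reads from it cannot be assigned to 1 place, and a peak can then be absent for want of assignable reads. How the authors treated such reads is not given in the sources used here, so repetition is reported beside the results.

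Sequences from these regions are shown first, each on the GRCm38 assembly (mm10 coordinates), 5′ to 3′, with CpG dinucleotides in capitals. The first 2 are plus-strand peaks that stand alone at the ends of the longest stretch, at chr17:17973576-17973725 and chr17:20245436-20245585. The left one was called in both replicates, with the authors' scores of 23 and 18, and the right one only in replicate 1, with a score of 16.
Left edge: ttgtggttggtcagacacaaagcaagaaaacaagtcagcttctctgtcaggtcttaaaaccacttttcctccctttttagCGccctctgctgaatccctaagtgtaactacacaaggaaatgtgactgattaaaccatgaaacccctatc
Right edge: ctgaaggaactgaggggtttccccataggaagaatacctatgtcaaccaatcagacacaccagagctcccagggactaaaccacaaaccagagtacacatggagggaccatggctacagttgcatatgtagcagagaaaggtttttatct
The next is a lone peak between 2 stretches inside the gene Dpp10, at chr1:123724156-123724325 on the plus strand, with scores of 36 and 26.
Dpp10 peak: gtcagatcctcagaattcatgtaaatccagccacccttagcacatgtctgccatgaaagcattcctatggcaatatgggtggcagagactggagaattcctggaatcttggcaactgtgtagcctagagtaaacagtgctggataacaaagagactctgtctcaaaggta
The last 3 are the 250 bases upstream of RefSeq starts inside stretches (RefSeq, GRCm38.p6), all on the plus strand. Srp54b lies at chr12:55154854-55155103, Olfr1124 at chr2:87434239-87434488 and Vmn2r100 at chr17:19504561-19504810. They show a CpG-rich promoter, with 26 CpG in its 250 bases, and 2 promoters of sensory receptor genes with 0.
Srp54b: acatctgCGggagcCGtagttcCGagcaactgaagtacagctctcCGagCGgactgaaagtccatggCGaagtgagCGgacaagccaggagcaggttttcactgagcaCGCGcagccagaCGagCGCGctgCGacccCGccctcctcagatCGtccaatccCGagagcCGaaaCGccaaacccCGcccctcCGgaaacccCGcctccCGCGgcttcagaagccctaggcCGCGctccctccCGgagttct
Olfr1124: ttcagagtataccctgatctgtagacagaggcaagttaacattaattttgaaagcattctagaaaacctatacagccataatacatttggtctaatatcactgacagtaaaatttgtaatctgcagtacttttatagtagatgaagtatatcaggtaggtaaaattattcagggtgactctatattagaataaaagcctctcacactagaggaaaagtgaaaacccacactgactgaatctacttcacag
Vmn2r100: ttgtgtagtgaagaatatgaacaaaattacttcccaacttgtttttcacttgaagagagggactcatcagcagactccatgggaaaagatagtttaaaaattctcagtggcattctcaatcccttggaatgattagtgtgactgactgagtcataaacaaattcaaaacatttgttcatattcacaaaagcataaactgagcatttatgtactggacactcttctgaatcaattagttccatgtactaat

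The 448 stretches summed to 117 Mb, or 4.87% of autosomal bases. Their median length was 202 kb (quartiles 168 and 273 kb) and the longest was 2272 kb. For comparison, the median gap-free interval was 2.69 kb and 99% of intervals were shorter than 58.6 kb. Only 27 stretches reached 500 kb and 4 reached 1 Mb, and the 27 held 19.6% of the total length. Just inside the length limit lay stretches of 150.1, 150.2, 150.2 and 150.3 kb, and just outside it intervals of 149.6, 149.7, 149.9 and 149.9 kb, so the limit cuts a continuous distribution. With replicate 1 alone the same rule gave 498 stretches and 135 Mb, and with replicate 2 alone 935 and 256 Mb.

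**Figure D1:**
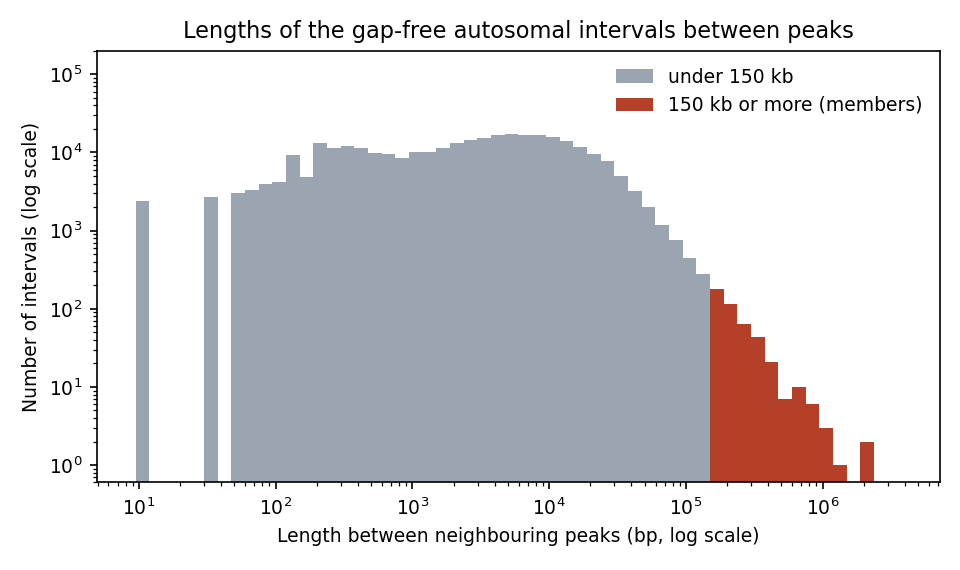
Number of gap-free autosomal intervals between neighbouring merged peaks (y axis, log scale) by length in bp (x axis, log scale). The 448 intervals of 150 kb or more, in red, form the far tail of a smooth decline, and the longest reach 2272 kb.

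Chromosome 7 carried most, with 55 stretches covering 12.1% of its sequence, followed by chromosome 6 with 8.43%, chromosome 17 with 7.80% and chromosome 14 with 7.73%. Chromosome 11 had 9 stretches and 1.83%. Stretches also came in runs. Of 429 pairs of neighbouring stretches on the same chromosome, 87 were separated by at most 20 kb, and in 53 of them the separator was a single peak block of 150 bp. The run on chr2:86464986-88653895 joined 4 stretches over 2.19 Mb with 94 olfactory receptor genes wholly inside, and held 2 peaks of each replicate.

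The sequence of the stretches was poor in GC and rich in repeats. GC was 38.6% against 42.1% in the remaining autosomal sequence, a difference of -3.48 percentage points (-3.45 with replicate 1 alone and -4.18 with replicate 2 alone), and 414 of 448 stretches lay below the remaining sequence. CpG occurred 5.57 times per kb against 8.66. Bases in lower case in the assembly, which marks repeats and low-complexity sequence together, made up 50.5% against 32.6%. In 444 stretches the share exceeded the latter. The classes of repeat were not available. CpG-rich tiles, here 500 bp with at least 55% GC and a CpG frequency of at least 0.65 of that predicted from base composition, were 0.0923% of tiles (215 of 232980) against 0.477% of tiles elsewhere.

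Repetition at the scale of a short read was measured by 32-base words taken every 250 bp and looked up on both strands of the assembly. In the stretches 41.5% of words occurred more than once in the genome, against 14.1% elsewhere, and 430 of 448 stretches exceeded the latter. The difference was 27.5 percentage points, 27.2 with replicate 1 alone and 17.9 with replicate 2 alone. With only the peaks at or above their list's median score it was 13.8 points. Outside lower-case sequence the shares were 24.3% and 2.22%, so the repetition was not limited to sequence in lower case. How much of it comes from interspersed repeats was not tested. Within merged peaks 1.02% of words were repeated. Single stretches ranged from 7.26% to 98.5%, with a median of 28.2%. Words present once represented 68.2 Mb of the 117 Mb, and 177 stretches held at least 150 kb of them.

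The stretches fell along a range from unique and AT-rich to copied and GC-richer, and their gene content changed along it. The class limits of 25% and 50% repeated words were set after the values were seen. Below 25% lay 172 stretches (36.6 Mb) with a GC of 36.8%, and 131 of them touched no protein-coding gene. Of the 181 coding genes wholly inside this class, 144 were olfactory receptors. Between 25% and 50% lay another 172 stretches (48.9 Mb, GC 38.2%) with 523 coding genes, 322 of them olfactory receptors. At 50% or more lay 104 stretches (31.2 Mb, GC 41.3%) with 356 coding genes, 11 of them olfactory receptors. Pseudogenes numbered 178, 636 and 653 in the classes from lowest to highest. The GC of the first class differed by -5.17 percentage points from all other autosomal sequence, here with the other stretches included. This gap was wider than that for all 448.

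**Figure D2:**
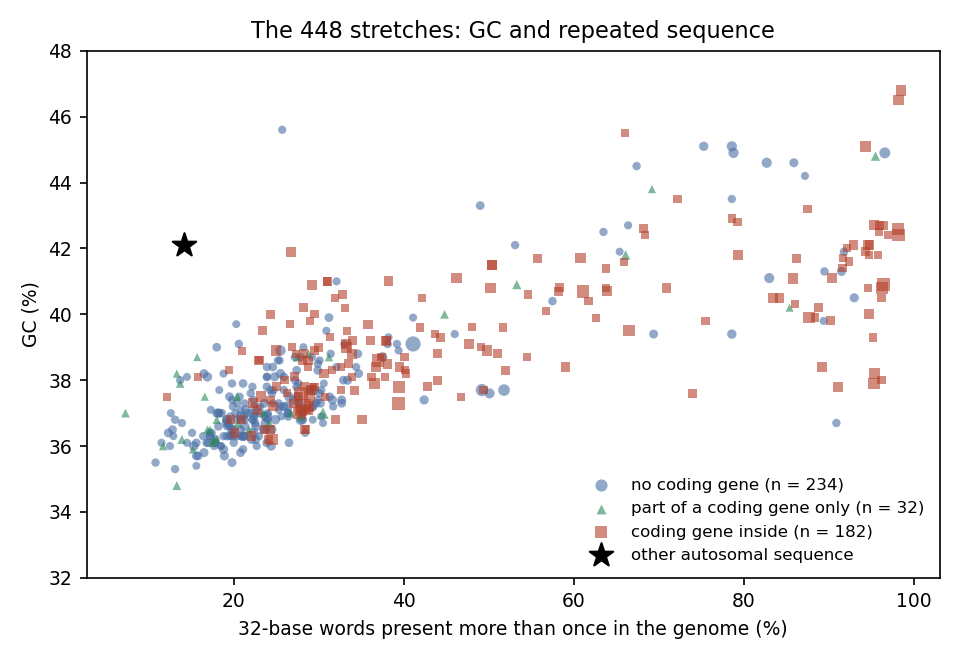
GC (y axis, %) against the share of 32-base words present more than once in the genome (x axis, %) for each of the 448 stretches, with the area of a point growing with length and the colour giving the gene content. Stretches without a coding gene crowd at the lower left, those with coding genes spread to the right, and the remaining autosomal sequence (star, 14.1% and 42.1%) lies above the low-repeat group.

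Gene starts that lay between peaks were not related to interval length in 1 direction. Starts inside a peak belong to no interval and are not counted here. The values for short intervals are therefore not the full gene densities of peak-rich sequence. Intervals under 10 kb held 8.81 protein-coding 5′ ends per Mb, those of 10 to 50 kb held 2.69, those of 50 to 100 kb held 3.05 and those of 100 to 150 kb held 4.60. In the stretches the density was 7.38 per Mb at 150 to 300 kb and 12.4 per Mb at 300 kb or more. The share of repeated words rose through the same 6 classes from 6.76% to 50.6%, while GC was 44.3% in the shortest class, 38.2% at 100 to 150 kb and 39.2% in the longest. The exonic share of coding genes in the stretches, 2.69%, was close to the 2.97% elsewhere, whereas gene bodies covered 15.7% against 42.7%. The stretches held 5.09% of coding genes in 4.87% of autosomal bases, so over all 448 the number of genes per base was near that of the autosomes.

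**Figure D3:**
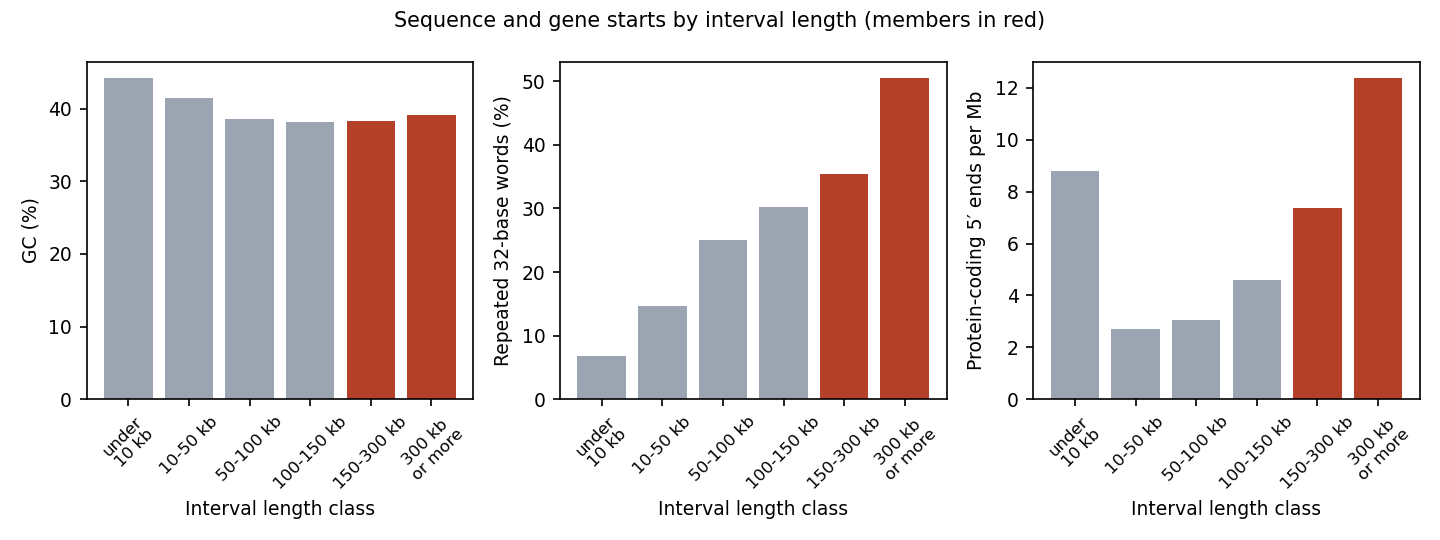
GC (%), repeated 32-base words (%) and protein-coding 5′ ends per Mb in 6 classes of interval length, the stretches in red. Repetition rises from 6.76% to 50.6%, and gene starts fall from 8.81 to 2.69 per Mb and then rise to 12.4 per Mb in the longest class. Gene starts inside a peak belong to no interval and are left out.

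The 10 longest stretches were arrays of related genes or gene segments. The longest, chr17:17973726-20245435 (2272 kb, 28.2% repeated words), held 16 Vmn2r pheromone receptor genes, 3 Fpr genes of the formyl peptide receptor family and 19 pseudogenes. The second, chr12:114048246-116017075 (1969 kb, 41.1%), held 87 segments of the immunoglobulin heavy chain locus and 79 pseudogenes, and no gene annotated as protein-coding. The third, chr4:111954346-113171215 (1217 kb, 27.9%), held 7 Skint genes, among them Skint1, which is needed for a class of epidermal T cells. The fourth, chr7:20049646-21150315 (1101 kb), held 21 Vmn1r pheromone receptor genes and 96.4% repeated words, which left 39.5 kb of words present once.

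The fifth and seventh, chr17:39129426-40114575 (985 kb, 39.4%) and chr17:38171346-39107255 (936 kb, 27.9%), held 4 and 6 genes of exocrine gland-secreted peptides (Esp), pheromones of the lacrimal gland, and the latter also 5 olfactory receptor genes. The sixth, chr2:87394966-88356415 (961 kb, 27.7%), held 46 olfactory receptor genes with Pramel6 and Pramel7. The eighth, chr7:10495506-11417495 (922 kb, 61.1%), held 6 Zscan4 genes, known from early embryos, and 4 Vmn1r genes. The ninth, chr6:68884426-69732995 (849 kb, 49.2%), held 26 immunoglobulin kappa segments. The tenth, chr7:41634846-42450755 (816 kb, 37.0%), held 4 Vmn2r genes. Every one of the 10 exceeded the 14.1% of repeated words elsewhere, and 2 exceeded 50%.

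In all, 1060 of 20807 autosomal protein-coding genes lay wholly inside a stretch, which is 5.09% and the base against which families are read. Of the 1060, 618 were olfactory or vomeronasal receptor genes, and 208 had only a Gm number for a name. They lay in 182 stretches, while 234 touched no coding gene and 32 held only part of 1 or more. Other annotated types were 1467 of 11594 pseudogenes (12.7%), 229 of 494 antigen receptor segments (46.4%) and 124 of 9426 long non-coding RNA genes (1.32%).

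Receptors for odours and pheromones were the most numerous of the families inside, and taste receptors are given with them. Of 1128 autosomal olfactory receptor genes 477 lay wholly inside, 42.3% (exact 95% interval 39.4 to 45.2%), in 50 stretches, among them Olfr1123, Olfr1124, Olfr1126 and Olfr1128. Only 11 of the 477 lay in stretches with 50% or more repeated words. Of 329 vomeronasal receptor genes 141 lay inside, 42.9% (37.4 to 48.4%), with Vmn2r100 to Vmn2r103 in the longest stretch, and 54 of the 141 were in stretches with 50% or more. Of 35 bitter taste receptor genes 17 lay inside, 48.6% (31.4 to 66.0%), such as Tas2r103, Tas2r109, Tas2r110 and Tas2r113 in chr6:132795706-133105155. Of 27 formyl peptide and Mrg receptor genes, which serve leukocytes and sensory neurons, 15 lay inside, including Fpr-rs4, Fpr-rs6, Fpr-rs7 and Mrgpra1. Each of these 4 shares exceeded the 5.09% of all coding genes. These intervals cover counting error only, and neighbouring genes of an array are not independent.

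Secreted defence and signalling proteins formed the second group, and cytochrome P450 enzymes, which are not secreted, are given with them. Of 22 alpha-defensin genes, antimicrobial peptides of Paneth cells, 17 lay inside (77.3%), all in chr8:21136526-21756535, where 87.7% of words were repeated. Examples are Defa17, Defa2, Defa20 and Defa22. Of 29 androgen-binding protein genes, secretoglobins of saliva and tears, 18 lay inside (62.1%), such as Scgb1b15 and Scgb2b15, and all 18 were in stretches with 50% or more repeated words. Beta-defensins were different, with 2 of 42 inside (4.76%, Defb7 and Defb8), a share near the 5.09% of all coding genes. Major urinary proteins gave 2 of 22 (Mup13 and Mup14) and serpins of clades a and b 2 of 49 (Serpina1a and Serpina1d), with intervals that include 5.09%. Of 78 cytochrome P450 genes of families 2 to 4, 10 lay inside (12.8%), 9 of them in stretches with 50% or more repeated words. The 10 included Cyp3a11, Cyp3a25, Cyp3a41a and Cyp3a44, enzymes of the liver. Every major urinary protein and serpin gene inside also lay in such stretches, and 0 of the 2 beta-defensin genes did.

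Among immune and germ cell genes, 12 of 32 natural killer cell lectin receptor genes lay inside (37.5%), led by Klra1, Klra10, Klra3 and Klra4 in chr6:129841566-130398495. Pramel and Oog genes of germ cells and oocytes gave 8 of 15 (53.3%; Pramel6, Pramel7, Oog2 and Oog3), and Speer genes 1 of 10 (Speer1). Of the 8 Pramel and Oog genes 6 were in stretches with 50% or more repeated words, as was Speer1. Of the 12 lectin receptor genes 0 were. Zinc finger genes named Zfp, Zkscan or the like gave 15 of 415 (3.61%), and 14 of the 15 were in stretches with 50% or more repeated words, Zscan4b, Zscan4c and Zscan4d among them. The intervals of the Speer genes (0.253 to 44.5%) and the zinc finger genes (2.04 to 5.89%) include the 5.09% of all coding genes. Further families, added after their genes had been seen inside and therefore no more than description, were Sult2a sulfotransferases (7 of 8), Sprr2 proteins of the cornified epidermis (8 of 11), Skint genes (7 of 11), Nlrp genes (4 of 17) and Clec4 lectins (3 of 11). All 8 Sprr2 genes and 2 of the 4 Nlrp genes lay in stretches with 50% or more repeated words. Of the Sult2a, Skint and Clec4 genes 0 did.

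**Figure D4:**
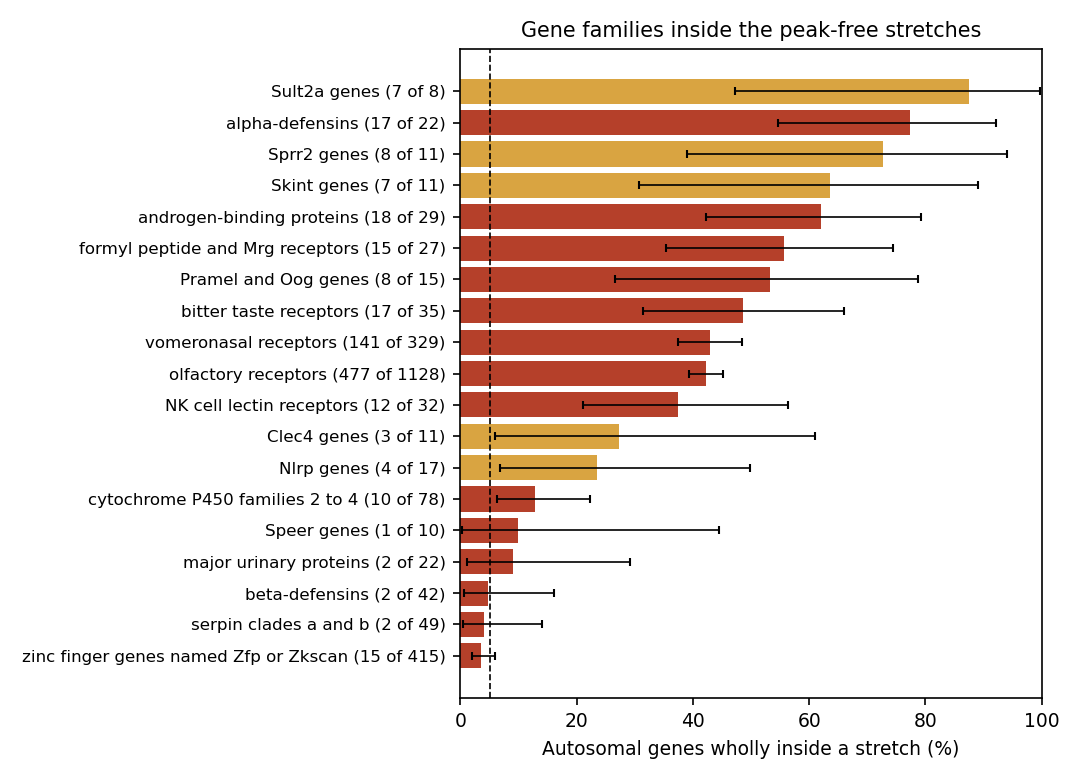
Share of the autosomal genes of each family that lay wholly inside a stretch (x axis, %), with exact 95% intervals for counting error and the number of genes in brackets, for families with at least 1 gene inside. The dashed line marks the 5.09% of all coding genes, and families in yellow were added after their genes were seen inside.

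Other listed families had no gene wholly inside. These were 57 keratin-associated protein genes, 39 Hox genes, 29 voltage-gated potassium channel genes, 27 glutamate receptor genes, 25 genes of the prolactin family, 22 UDP glucuronosyltransferase genes, 21 facial markers and 16 GABA-A receptor genes. The 21 facial markers all had a promoter peak in both replicates, so their absence was largely set by the rule. Smaller lists of neuronal adhesion genes also had 0 inside, again with intervals that include 5.09%. The long genes Cdh12, Cdh18, Cntnap2, Csmd3, Lrp1b and Sgcz did reach into stretches. The prolactin array, a tandem family of the placenta, had 0 of 25 genes inside at this length limit (interval 0 to 13.7%).

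The antigen receptor loci, which rearrange only in lymphocytes, differed among themselves. Of the immunoglobulin heavy chain segments 111 of 144 (77.1%) lay inside 2 stretches, and of kappa segments 60 of 106 (56.6%) inside 6. T cell receptor alpha and delta segments gave 56 of 170 (32.9%), all in 2 stretches on chromosome 14 with 83.0% and 91.5% repeated words. The lambda, beta and gamma loci, with 12, 39 and 15 segments, had 0 inside. The stretch over the heavy chain D segments, chr12:113313586-113485175, combined 45.6% GC with 25.7% repeated words.

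Ranked by the number of bases in stretches, the leading 15 coding genes were long genes, most of them only partly inside. Dpp10, a partner of potassium channels, had 585 kb of its 724 kb (80.8%) in 3 stretches, and the whole gene had 14 peaks in replicate 1 and 9 in replicate 2. Its 3 stretches followed one another across the peak shown above and another at chr1:123555136-123555305, called in replicate 1 only with a score of 11. The receptor gene Lrp1b had 519 kb of 2058 kb (25.2%) in 3 stretches, with 58 and 26 peaks along the gene. Zfp804b had 392 kb (68%), the glycosyltransferase gene Galnt13 283 kb (41.5%), Csmd3 232 kb (19.1%), St18 203 kb (54.3%), Sgcz 201 kb (17.7%), the cadherin gene Cdh12 196 kb (17.2%), Lrfn5 173 kb (51.6%), the ubiquitin ligase gene March1 168 kb (19.7%) and Cntnap2 168 kb (7.50%).

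Skint6 had 482 kb in stretches and 1 peak in its body in replicate 1 and 0 in replicate 2, and Skint5 had 376 kb (72.0%), with 4 and 3 peaks. Gm3383 (200 kb) and Gm3005 (166 kb) lay wholly inside stretches of chromosome 14. Of the 32 stretches that held only parts of coding genes, 19 lay wholly within 1 gene body. The lowest share of repeated words among all 448, 7.26%, was that of a Dpp10 stretch, chr1:123348566-123555135.

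Of the 234 stretches without a coding gene, 67 held no annotated gene of any kind. The nearer protein-coding gene lay at a median of 544 kb, and over 100 kb away for 197. The longest of these with under 25% repeated words was chr7:60974406-61547295 (573 kb, 36.9% GC), between Snrpn at 834 kb and Ndn at 799 kb, in a domain known for imprinted, paternally expressed genes. Further long ones were chr15:46126006-46519015 (393 kb) between Kcnv1 and Csmd3, chr4:27053826-27426015 (372 kb) between Manea and the ephrin receptor gene Epha7, chr10:48582286-48937295 (355 kb) at 158 kb from the glutamate receptor gene Grik2, chr6:20840446-21151975 (312 kb) at 63.5 kb from the potassium channel gene Kcnd2, and chr16:61772706-62082375 (310 kb) between Epha6 and Nsun3. The GC of these 5 ranged from 36.0% to 37.0%. Nearness was used only to place a stretch, and no link to a gene was measured.

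Another stretch of the same imprinted domain, chr7:59272066-59571915 (300 kb), held 111 small nucleolar RNA genes, RNAs that guide the modification of other RNAs. All 111 were on the minus strand in the region of Snhg14, the host transcript that runs antisense to Ube3a. They were 69 to 88 bases long and comprised 51 distinct sequences, of which the most frequent occurred 25 times. That sequence is given from chr7:59393561-59393639, with the letters of the C-box-like TGATGA and D-box-like CTGA in capitals, letters that 109 of the 111 carried.
snoRNA: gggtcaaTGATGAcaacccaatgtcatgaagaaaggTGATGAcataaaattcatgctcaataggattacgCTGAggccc
Of the words in this stretch 66.1% were repeated, and 76.4% of its bases were in lower case, the highest share among all 448.

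Groups of neighbouring stretches with mostly repeated sequence lay on chromosomes 12 and 14. On chr14:3049246-7658695, 12 stretches with 3.85 Mb in all had 96.2% repeated words and 75 coding genes, every one named by a Gm number. On chr12:18327406-24076015, 10 stretches with 3.39 Mb in all had 85.6% repeated words, 44.9% GC and 1 coding gene. The highest GC of any stretch, 46.8%, and the highest share of repeated words, 98.5%, were both found at chr14:69249046-69692135, which held Entpd4 and Entpd4b and had the lowest lower-case share, 20.8%. These windows were picked after their values were seen.

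Promoters inside the stretches were mostly poor in CpG. The window of 500 bp on either side of the 5′ end lay in a stretch for 1081 coding genes and held a median of 4 CpG (quartiles 2 and 5), against 46.0 for the other 19726 genes and 9 for the 5124 of these whose window also had no peak. A count of 40 CpG or more was found for 32 (2.96%) in the stretches, 210 (4.10%) of the others without a peak and 10644 (72.9%) of those with one. Of the 32, 31 had at least 50% repeated words in the window and 0 had under 10%. Of all 242 promoters with 40 CpG or more and no peak, these 32 included, 75 had at least 50%. Of the 10644 CpG-rich promoters with a peak, 65 had at least 50%.

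The 12 with most CpG came in copies. Srp54b and Srp54c, which encode a subunit of the signal recognition particle needed for protein secretion, had 69 CpG each, and Fam177a and 1700047I17Rik2 in the same stretch had 76 and 77, all 4 with 100% repeated words. Entpd4 and Entpd4b, which encode nucleotidases, had 75 each and also 100%. Gm3488, Gm10409, Gm3020, Gm3252, Gm3373 and Gm3500 on chromosome 14 had 69 to 77 CpG and 82.5% to 100% repeated words. Among the promoters in stretches with under 10% repeated words, by contrast, the highest CpG count was 20, that of the oocyte gene Nlrp5, followed by 17 for Ubqln5 and 15 for Slco6c1.

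At the Srp54 genes a stretch began beside an open promoter and continued over copies of it without a peak. The stretch chr12:55080946-55272395 (191 kb) starts after a peak block at chr12:55080716-55080945 that lies downstream of the start of Srp54a (chr12:55080262). Within 500 bp of its start Srp54a had 4 peaks in replicate 1, with a highest score of 128, and 6 in replicate 2, with a highest score of 123, while Srp54b, Srp54c, Entpd4 and Entpd4b had 0 in both. Of the 219 words of 32 bases in the printed Srp54b promoter, all 219 were found near the start of Srp54c and 90 (41.1%) near that of Srp54a. All 219 words of the Entpd4b promoter were likewise found at Entpd4. Whether reads from these copies were set aside was not tested.

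A stretch chosen in 1 replicate can be read in the other, whose peaks did not enter the choice. Both replicates share the same genome, so repeated sequence is common to them. Stretches chosen by the same rule in replicate 1 alone (498, 135 Mb, 5.64% of sequence) held 313 peaks of replicate 2, or 2.31 per Mb against 94.1 per Mb elsewhere, a ratio of 0.0246, and 297 of them (59.6%) held 0. Stretches chosen in replicate 2 alone (935, 256 Mb, 10.7% of sequence) held 3171 peaks of replicate 1, or 12.4 per Mb against 137, a ratio of 0.0905, and 110 (11.8%) held 0. In both directions the other replicate was far sparser there than elsewhere. The peaks that did occur were weak: the median score was 13 against 37 for all peaks of replicate 2, and 29 against 50 for replicate 1. Peaks at or above their list's median score numbered 2 and 83.

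**Figure D5:**
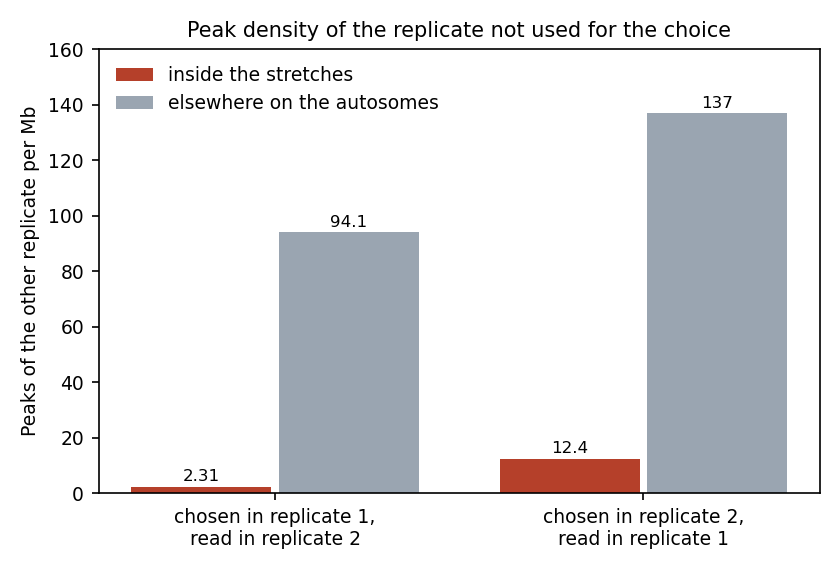
Peaks of the other replicate per Mb (y axis) inside stretches chosen in 1 replicate (red) and elsewhere on the autosomes (grey). The density inside was 2.31 against 94.1 per Mb for stretches chosen in replicate 1 and 12.4 against 137 per Mb for those chosen in replicate 2.

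Hotspots are broader regions of cutting that the authors deposited beside the peaks. They come from the same libraries as the peaks that chose the stretches, so their number inside is description and adds no separate support. Of 271157 hotspots in replicate 1 and 193911 in replicate 2, 0 lay wholly inside a stretch. Those that touched one, 399 and 214, reached in from an edge by at most 381 and 408 bp. The peak blocks at the edges were weaker and less often shared than peak blocks in general. Of 823 distinct edges 266 (32.3%, exact 95% interval 29.1 to 35.6%) were called in both replicates, against 53.5% of all 324013 blocks, and 418 (50.8%) were called only in replicate 1, against 36.3%. The median score at edges was 30 against 51 for all blocks of replicate 1, and 22 against 37 for replicate 2. Edges belong to the rule that chose the stretches, so these values are description.

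Motifs were counted as short strings of letters. In tiles of 150 bp, on either strand, the GC box GGGCGG was found in 0.703% of tiles in the stretches and 1.3% of peak-free tiles elsewhere. Among the called peaks themselves, which are not tiles, it was found in 8.85% for replicate 1 and 11.6% for replicate 2. Other motifs are given in the same order. The E-box CAGCTG gave 3.66%, 5.31%, 18.1% and 16.6%, and the CTCF core AGGGGGC 0.662%, 1.11%, 4.05% and 5.34%. AP-1 (TGACTCA) gave 1.78%, 2.32%, 4.51% and 3.85%, and Ets (CCGGAA) 0.828%, 1.09%, 3.68% and 4.24%. The AT-rich TATA box TATAAA ran the other way, with 18.8%, 14.7%, 6.11% and 6.14%, as did the homeobox core TAATTA with 6.5%, 5.39%, 4.10% and 3.76%. The CCAAT box was likewise more frequent in the stretches than in peaks, with 28.0%, 22.6%, 18.9% and 19.5%. TEAD (GGAATG) gave 8.44%, 8.05%, 11.7% and 11.3%, and forkhead (TGTTTAC) 2.29%, 2.21%, 2.61% and 2.29%. A match is a string of letters and not a bound site, and the part of GC content in these shares was not tested.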

How the data were processed

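DNase-seq of facial prominence was deposited as 1 peak list and 1 hotspot list for each of 2 biological replicates, in mm10 coordinates per the labels. Of the aligner and the caller, the name is not given in the sources used here. The deposited peak lists carry the authors' score for each peak, used only within a list, and the deposited hotspot lists carry a −log10 q-value in the authors' broad peak format. Lists were called per replicate, and read counts cannot be recovered from them.

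Distinct peaks of both replicates were merged on 19 autosomes of GRCm38. Intervals between neighbouring blocks of at least 150 kb without a run of N of 1000 bp or more were kept. GC and lower-case bases were counted over A, C, G and T. Copy number was found for 32-base words every 250 bp (every 10 bp in promoters and peaks) on both strands of the primary assembly, so a read longer than 32 bases could be placed more often. Genes were those of GENCODE M21 (basic), and wholly inside means the whole gene body. Of 1058 distinct coding symbols inside, 791 had a promoter in the RefSeq table. Shares carry exact (Clopper-Pearson) 95% intervals for counting error only. Python 3.11.15, NumPy 2.4.6, SciPy 1.17.1, numba 0.67.0 and matplotlib 3.10.9 were used, and word counts and intervals were checked on simulated data.

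The 10 longest stretches, the 15 coding genes with most bases in stretches, up to 4 genes per listed family in order of stretch length and the 12 coding promoters with most CpG were named by rule, and facial markers overlapping a stretch would have been. Other genes were chosen after their values were seen. The stretches and the gene lists were chosen with earlier results of these data known. With 2 replicates of 1 group and regions chosen by the lists themselves, no p-value was computed. Alternatives changed the length limit, the gap rule, the peaks used and the definition of inside. Of the stretches without a coding gene, a selection is described and the others are not reported here.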

Additional observations from a re-analysis of the deposited data

How the results depend on the processing

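The GC difference was negative and both repeat differences were positive under every alternative run. A minimum of 100 kb gave 1041 stretches and 200 kb gave 233. Leaving out 1 replicate at a time gave 498 to 935 stretches, 135 to 256 Mb, GC differences of -4.18 to -3.45, lower-case differences of 15.6 to 17.9 and repeated-word differences of 17.9 to 27.2 percentage points, 1167 to 1452 coding genes and 499 to 636 olfactory receptor genes inside. Replicate 2 alone, the shorter list, gave the higher counts and length and the smaller repeat differences. With only peaks shared by both replicates there were 1066 stretches and 313 Mb, with differences of -4.23, 15.4 and 16.9 points, 1711 coding and 744 olfactory receptor genes. With only peaks at or above their list's median score there were 1619 and 539 Mb, with -4.58, 14.2 and 13.8 points, 2358 and 909 genes. Fewer peaks thus gave more stretches with a smaller share of repeated words. In the 172 stretches with under 25% repeated words, an alternative chosen after seeing the data, the GC difference was -5.17 and the lower-case difference 12.6 points. Both are against all other autosomal sequence, the other stretches included. Hotspots touching a stretch numbered 613, of which 395 were at or above their list's median value and 0 were wholly inside. When only stronger peaks were read, the density ratio fell from 0.0246 to 0.000311 for stretches chosen in replicate 1 and from 0.0905 to 0.00457 for those chosen in replicate 2. Excluding any N and adding hotspots to the peaks moved no count by over 1.5 times. No paired analysis was possible because 1 group was measured and no result comes from a test. Read depth is unknown, and it limits how far a missing peak can be read.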
